A study of Mus musculus with 9 samples.

Results

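The contractile actin cytoskeleton genes examined here are 10 genes of stress fibres and focal adhesions: Acta2, Myl9, Tpm1, Tpm2, Tagln, Cnn1, Cald1, Actn1, Flna and Vcl. They were chosen by name, as genes known to be lowered when fibroblasts are transformed, and each is represented by all probe sets that the array's annotation assigns to that gene alone. This gave 21 of 22690 probe sets and 10 of 12393 genes. A probe set is a group of short probes for 1 transcript, and the brightest probe set of a gene, by its mean over all arrays, stands for the gene below. The study profiled 3 mouse cell lines on 3 arrays each. SV5-NN4 is a stable NIH 3T3 clone carrying simian virus 40 (SV40) large T antigen and wild-type N-ras. SV5 is a stable NIH 3T3 clone transformed by SV40 large T antigen, a viral oncoprotein that binds p53 and the retinoblastoma family. NIH 3T3, labelled wild type, is the mouse embryo fibroblast line from which both were made. All 3 lines grew in medium with calf serum. Each derived line is 1 clone, so its transgenes cannot be told apart from clonal differences. Which promoters drive T antigen and N-ras is not stated in these labels.

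Stress fibres are bundles of actin filaments on which non-muscle and smooth muscle-type myosin II pull, and they end at focal adhesions, where integrins couple them to the matrix. Tropomyosins, calponin, caldesmon and transgelin bind along the filaments and tune myosin access, whereas alpha-actinin and filamin crosslink them. Many of these genes are driven by serum response factor (SRF) together with the actin-sensing coactivators Mrtfa and Mrtfb, and fibroblasts that take on a contractile, myofibroblast-like state raise them. In cultured fibroblasts, loss of stress fibres and of tropomyosins, caldesmon, vinculin and alpha-actinin is a classical mark of oncogenic transformation.

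SRF binds the CArG box, which reads CC, then 6 letters of A or T, then GG, and is the same on both strands. The 250 bases before the start of the genes in RefSeq's promoter table (GRCm38.p6) were searched for it, and 9 of the 10 genes had an entry, Cald1 with 2 starts and Tagln with none. Of these 10 windows, 2 held a CArG box, against 1.47% of all 32851 windows of that length, and 2 held a near match with 1 C or G among the 6 core letters, against 7.24% of all windows. The 3 promoters with a match of either kind are shown because these genes, Acta2, Myl9 and Vcl, are among those with lower values in SV5-NN4 than in SV5 on every pair of arrays below. They are written 5′ to 3′ on the gene's strand, with CArG boxes and near matches in capitals.
Acta2: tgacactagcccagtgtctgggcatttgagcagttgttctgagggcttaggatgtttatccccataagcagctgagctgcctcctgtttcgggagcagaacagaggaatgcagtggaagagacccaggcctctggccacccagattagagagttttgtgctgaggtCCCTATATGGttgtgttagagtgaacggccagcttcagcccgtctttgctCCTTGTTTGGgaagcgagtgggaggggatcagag
Myl9: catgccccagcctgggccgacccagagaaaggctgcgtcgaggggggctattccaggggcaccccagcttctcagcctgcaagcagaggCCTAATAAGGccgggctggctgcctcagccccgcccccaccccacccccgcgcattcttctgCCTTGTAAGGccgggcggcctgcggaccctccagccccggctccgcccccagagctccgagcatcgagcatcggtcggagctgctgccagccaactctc
Vcl: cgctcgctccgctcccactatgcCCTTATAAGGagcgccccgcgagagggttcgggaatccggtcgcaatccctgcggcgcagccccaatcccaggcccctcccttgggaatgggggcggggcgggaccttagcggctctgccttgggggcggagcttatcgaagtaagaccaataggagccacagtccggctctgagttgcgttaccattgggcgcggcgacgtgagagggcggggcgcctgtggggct
The Acta2 window is chr19:34255374-34255623 on the minus strand, and its 2 near matches begin 84 and 34 bases before the start used in the table. The Myl9 window is chr2:156775214-156775463 on the plus strand, with a CArG box 161 and a near match 99 bases before the start. The Vcl window is chr14:20929148-20929397 on the plus strand, with a CArG box 227 bases before the start. Tpm1, Flna and Cald1 also had lower values in SV5-NN4 than in SV5 in every pair and no match of either kind in their windows. A match describes the letters in a window, and no binding was measured.

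Arrays with the same replicate number in the sample titles were paired as planned, and they resembled each other. Differences are given by pair. Values are log2(intensity + 1). Bacterial control transcripts, which the cells do not contain, lay between 3.18 and 4.25 on this scale, and that range serves as the floor. Of 14 fibroblast identity genes, 0 had a mean within the floor. Vim, which encodes the filament protein vimentin, read 12.33 to 12.75 and Col1a2, a collagen I chain, 11.5 to 13.78 over the 9 arrays. Lum, the dimmest of the 14 by its mean, read 4.01 to 7.64 and so reached into the floor. Of the 10 measured markers of smooth muscle and pericytes, 1 had a mean within the floor. By their means the dimmest were Actg2, at 3.86 to 4.62, and Myh11, at 4.28 to 4.73. The brightest was Cspg4, at 6.38 to 7.83. The 10 summed to intensities of 352.1 to 527.8 in SV5-NN4, 362.8 to 563.7 in SV5 and 398.5 to 646.7 in NIH 3T3. Nras, the added gene, read 8.03 to 8.45 in SV5-NN4, 7.76 to 8.43 in SV5 and 7.1 to 7.85 in NIH 3T3, so its signal did not separate the line with added N-ras from SV5. With bulk RNA, fewer cells that express a gene and less of its RNA per cell cannot be told apart.

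The comparison of SV5 with NIH 3T3 asks which contractile genes differ in fibroblasts transformed by T antigen. None of the 10 genes was lower in SV5 by the test. Flna, the actin crosslinker filamin A, averaged 9.46 ± 0.67 in SV5 and 8.37 ± 1.05 in NIH 3T3 (SD, n = 3 each), and Tpm1, an alpha-tropomyosin, averaged 9.80 ± 1.04 in SV5 and 8.91 ± 0.84 in NIH 3T3; both were higher in SV5 in 3 of 3 pairs and neither passed the test. Over the 10 genes the median difference was 0.01, beside a median of -0.03 over all 12393 genes. Of the 10, 5 lay above 0 and 5 below, where 55.2% of all genes lay below. At their brightest probe sets the 10 genes thus showed no shared lower level in SV5. Lower levels of single genes are not excluded, because the test called only 14 of all 22690 probe sets in this comparison. The third Cald1 probe set, for example, lay at -0.79 with an interval in limma from -2.49 to 0.90. Over all 21 probe sets of the 10 genes, 11 lay below 0 and 10 above.

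The test was limma's moderated test on all 9 arrays with the replicate number as a block, adjusted by Benjamini-Hochberg over all 22690 probe sets, with 0.05 as the adjusted p below which a difference counted as called. In SV5 against NIH 3T3 it called 0 of the 21 probe sets, where 0.0617% of all probe sets were called. At an unadjusted p under 0.05 in limma there were 3 of 21, those of Flna and Tpm1 and the dimmest of Tpm2, all higher in SV5, beside 8.56% of all probe sets higher at that level. Without the block limma also called 0, where 0.00441% of all were called. The groups of arrays overlapped for all 21 probe sets, while 4.55% of all probe sets did not overlap. At the brightest probe sets the lowest bound of a 95% interval was -0.85, for Tpm2, so that a 2-fold lower level in SV5 (-1) lay outside the intervals. This bound says nothing of Myl9 and Cnn1, whose signals were too close to the floor to show such a difference. These intervals are not adjusted for the number of probe sets.

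Setting SV5-NN4 against SV5 asks what accompanies added wild-type N-ras in T antigen-transformed cells. Of the 10 genes, 8 lay below 0, beside 47.8% of all genes. The median difference of the 10 was -0.41, with a range of -0.86 to 0.15, beside a median of 0.01 over all genes. The largest differences were those of Acta2, which encodes smooth muscle alpha-actin and was 1.81-fold lower in SV5-NN4, and of Tagln, which encodes the actin-binding protein transgelin and was 1.73-fold lower. The adhesion protein gene Vcl was 1.47-fold lower and the filamin gene Flna 1.38-fold lower. Tpm2, Actn1 and Cnn1 were within 1.11-fold of SV5. None of these differences passed the test. Counting all 21 probe sets, the median difference was smaller, at -0.14, with 14 below 0, beside 0.01 over all probe sets.

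In SV5-NN4 against SV5, limma called 0 of the 21 probe sets, where 0.864% of all probe sets were called, and also 0 without the block, where 0.0837% were called. At an unadjusted p under 0.05 it had 7 of the 10 genes at their brightest probe set, all lower, beside 7.33% of all genes lower at that level. In 7 of the 10 genes all 3 pairs were lower, beside 20.6% of all genes, and the arrays of 3 genes, Acta2, Myl9 and Cald1, did not overlap, beside 4.32% of all genes. The genes were chosen with results of these data known, so these shares describe the set and are no test of it. Fitted on the 6 arrays of these lines alone, 2 of 21 probe sets were called, that of Vcl (-0.56, adjusted p = 0.037 in limma) and the second of Cald1 (-0.65, adjusted p = 0.049 in limma), where 6.63% of all probe sets were called.

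**Figure D1:**
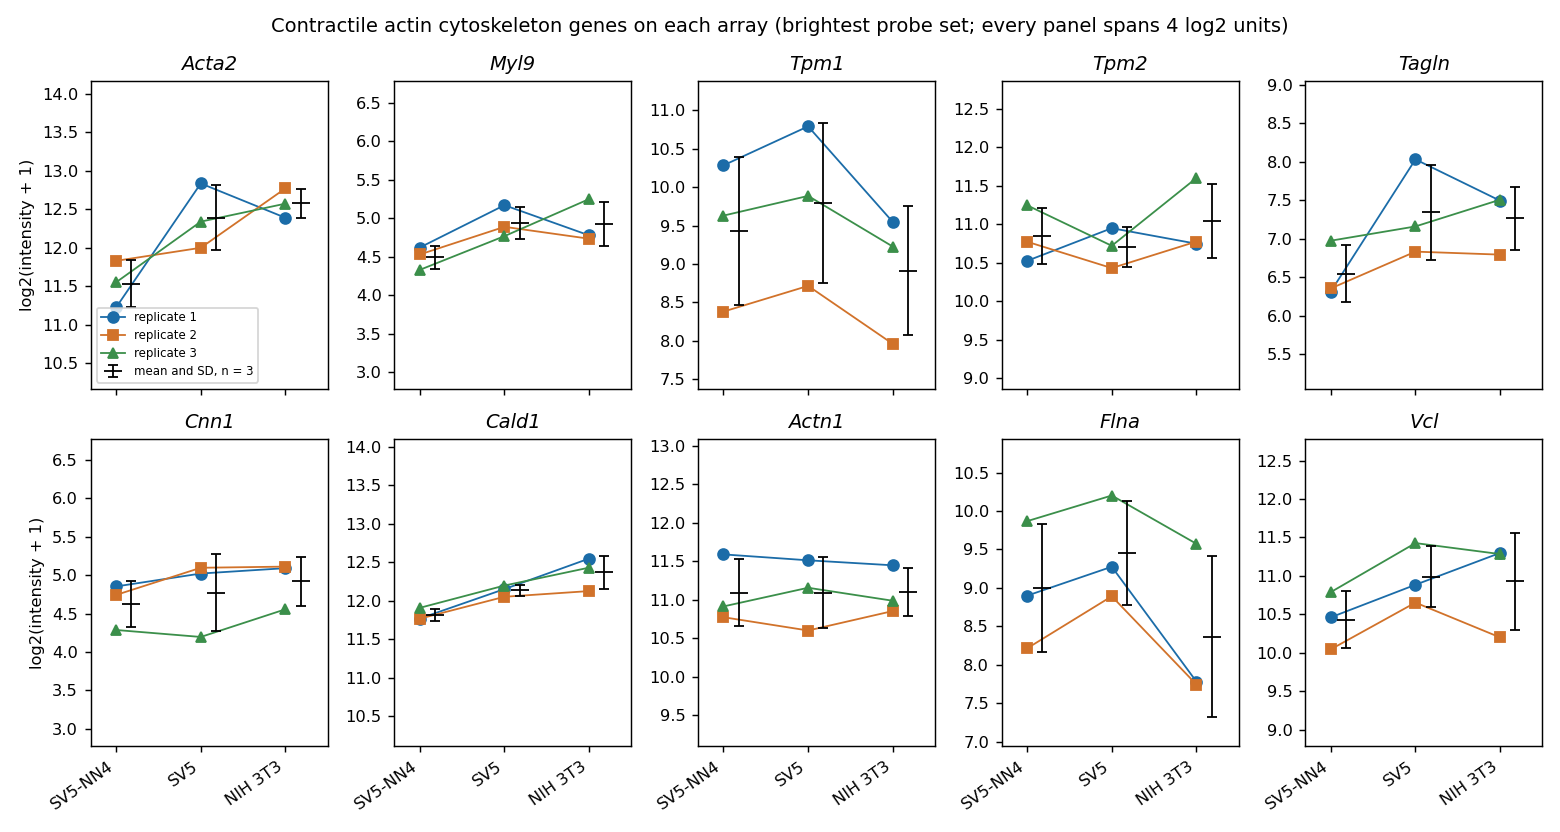
log2(intensity + 1) of each of the 10 genes at its brightest probe set in SV5-NN4, SV5 and NIH 3T3. Coloured points are single arrays joined by replicate number, black bars are the mean and SD of 3 arrays, and every panel spans the same 4 log2 units. Acta2, Myl9 and Cald1 have all 3 SV5-NN4 arrays below all SV5 and all NIH 3T3 arrays, while Tpm1 and Flna are highest in SV5 within every replicate number.

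Compared with NIH 3T3, SV5-NN4 again had lower values of Acta2, Tagln, Cald1, Vcl and Myl9, with fold differences from 1.35 for Myl9 to 2.06 for Acta2, while Flna was 1.54-fold and Tpm1 1.43-fold higher. The median over the 10 genes was -0.36, or -0.21 without NIH 3T3 replicate 3, beside -0.03 over all genes. Of the 10, 8 lay below 0, beside 55.1% of all genes. These 8 include Actn1 at -0.004 and Tpm2 at -0.19, both of which lay above 0 with the probe sets of each gene averaged. Counting all 21 probe sets, the median was -0.19, with 15 below 0, beside -0.03 over all probe sets. In this comparison limma called 0 of 21 probe sets, where 1.65% of all probe sets were called, and 0 without the block, where 0.0793% were called. At an unadjusted p under 0.05 there were 6 probe sets lower, beside 7.10% of all, and 3 higher, those of Flna and Tpm1 and the dimmest of Tpm2, beside 10.0%. Acta2, Myl9 and Cald1 did not overlap with NIH 3T3 at their brightest probe sets, beside 3.26% of all genes lower in that way. The 2 comparisons with SV5-NN4 share its arrays and the 2 with NIH 3T3 share those of NIH 3T3, so they are not independent of each other.

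Among the filament and motor genes, Acta2 read 11.22, 11.83 and 11.55 in SV5-NN4 replicates 1, 2 and 3, against 12.84, 11.999 and 12.34 in SV5 and 12.39, 12.77 and 12.57 in NIH 3T3. All SV5-NN4 arrays lay below all others, and SV5 and NIH 3T3 overlapped. The difference of SV5-NN4 from SV5 was -0.86 (SE 0.26, 95% interval -1.47 to -0.25, limma adjusted p = 0.20), made up of -1.61, -0.17 and -0.79 by pair, and it was -0.51 without SV5 replicate 1. Its difference from NIH 3T3 was -1.04 (SE 0.26, 95% interval -1.65 to -0.44, limma adjusted p = 0.10), with pairs of -1.17, -0.94 and -1.02 that were close in size. Between SV5 and NIH 3T3 the difference was -0.19, with pairs of 0.45, -0.77 and -0.23 that changed sign. The second Acta2 probe set read 4.08 to 4.34 over the 9 arrays, at the upper edge of the floor, and carries no information on the gene. The identifier of the brightest one bears the suffix that Affymetrix gives to probes shared by several transcripts, as does that of the brightest Cald1 probe set. The related muscle actins Actg2, Acta1 and Actc1 read 3.86 to 5.43 at their own brightest probe sets. The non-muscle actins were bright, with line means of 11.98 to 12.49 for Actb and 12.62 to 13.07 for Actg1. Which transcripts share these probes was not examined here.

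Myl9, a regulatory light chain of smooth muscle and non-muscle myosin II, read 4.62, 4.53 and 4.33 in SV5-NN4, 5.17, 4.89 and 4.77 in SV5 and 4.78, 4.73 and 5.25 in NIH 3T3. The SV5-NN4 arrays were the lowest and the other lines overlapped. The highest of the 9 values was 5.25, beside an upper edge of the floor of 4.25, so the difference from SV5 of -0.45 (SE 0.19, limma adjusted p = 0.38) is a difference between dim signals, which this scale understates. SV5-NN4 differed from NIH 3T3 by -0.43 (limma adjusted p = 0.31), or -0.18 without NIH 3T3 replicate 3, and SV5 from NIH 3T3 by 0.02 (95% interval -0.42 to 0.46).

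The tropomyosins, which wind along the filament and stabilise it, differed in their pattern. Tpm1 read 10.28, 8.38 and 9.63 in SV5-NN4, 10.79, 8.72 and 9.89 in SV5 and 9.55, 7.96 and 9.23 in NIH 3T3. Replicate 2 was the lowest in every line, replicate number held 80.6% of the variance of this probe set, and the lines overlapped. Within pairs the order was the same each time, with SV5 highest and NIH 3T3 lowest. SV5 exceeded NIH 3T3 by 0.89 (SE 0.14, 95% interval 0.55 to 1.22, limma adjusted p = 0.11). SV5-NN4 exceeded NIH 3T3 by 0.52 (limma adjusted p = 0.13), and its difference from SV5 was -0.37 (SE 0.14, limma adjusted p = 0.33), or -0.24 without SV5 replicate 1. The other 2 Tpm1 probe sets gave differences of -0.14 and -0.02 between SV5 and NIH 3T3, so the 3 probe sets of this gene, which is spliced into many isoforms, disagreed. With the 3 averaged, Tpm1 differed by 0.24 in SV5 against NIH 3T3 and by 0.05 in SV5-NN4 against NIH 3T3. Which isoforms each covers was not examined here.

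Tpm2, which encodes beta-tropomyosin, read 10.53, 10.77 and 11.25 in SV5-NN4, 10.95, 10.43 and 10.72 in SV5 and 10.75, 10.78 and 11.60 in NIH 3T3, with all lines overlapping. Its differences were -0.34 for SV5 against NIH 3T3 (95% interval -0.85 to 0.17), 0.15 for SV5-NN4 against SV5 (-0.36 to 0.66) and -0.19 for SV5-NN4 against NIH 3T3 (-0.70 to 0.32). Of its 4 probe sets, the third and the dimmest had the opposite sign in the comparisons with NIH 3T3. The third lay at 0.52 for SV5-NN4 and 0.09 for SV5, and the dimmest at 0.70 for SV5-NN4 and 0.52 for SV5 (limma adjusted p = 0.16 and 0.34). On the dimmest the SV5-NN4 arrays, at 6.06 to 6.88, all exceeded the NIH 3T3 arrays, at 5.44 to 5.90, as 3.34% of all probe sets did.

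**Figure D2:**
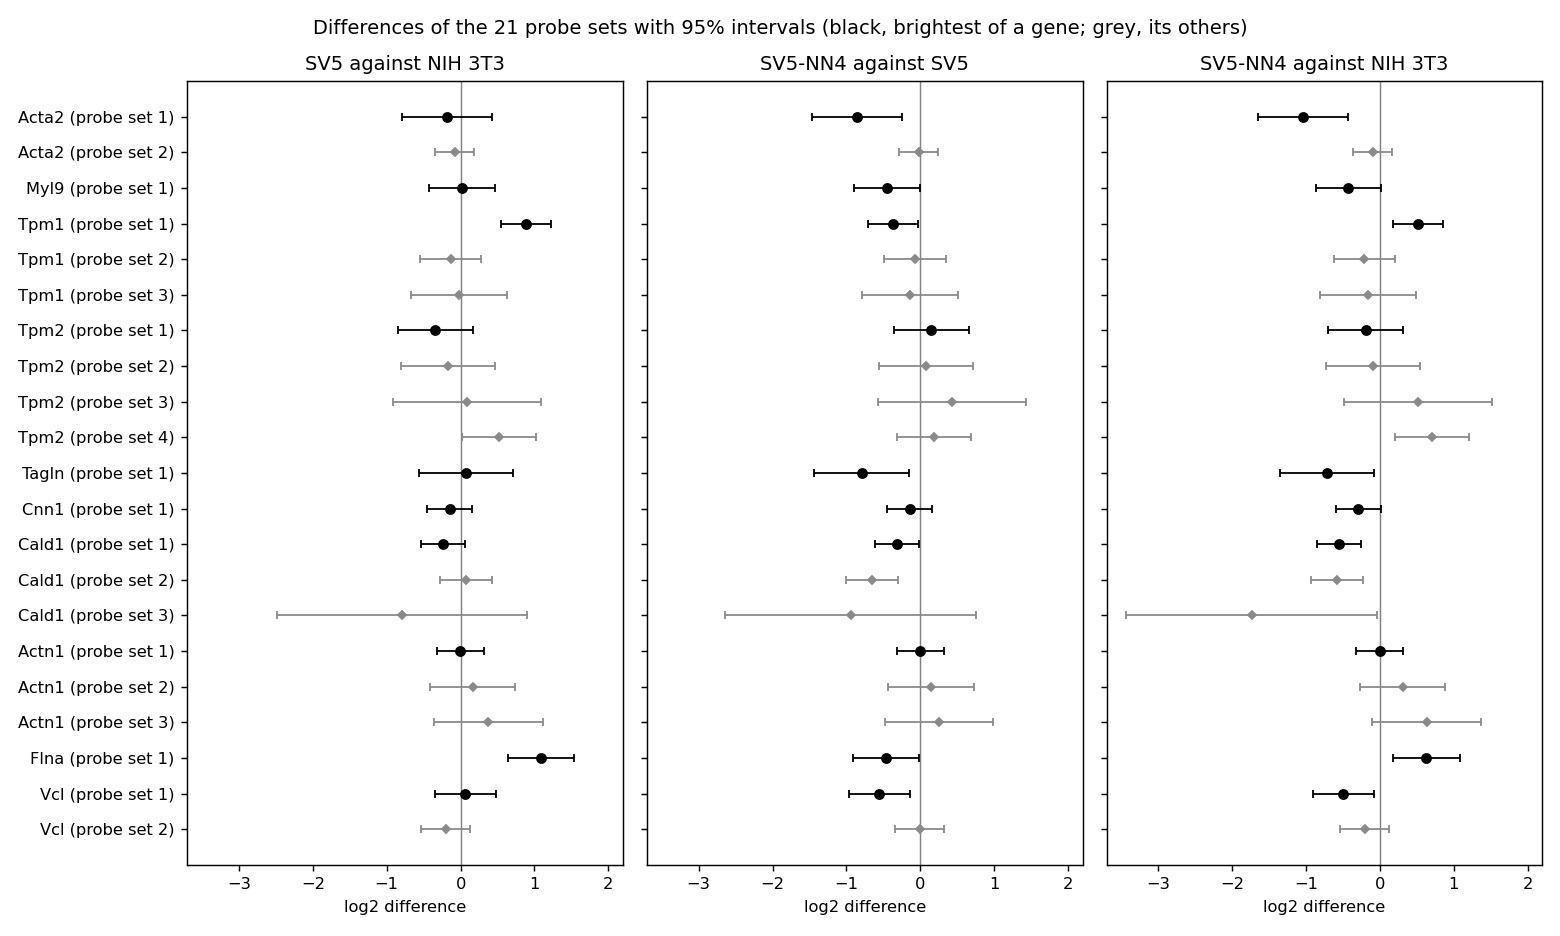
log2 differences of all 21 probe sets in the 3 comparisons, each as first-named line minus second, with 95% intervals from the limma fit with the replicate block. Probe sets of a gene are numbered from the brightest (black circles), others are grey diamonds. In SV5-NN4 against SV5 the brightest probe sets run from -0.86 for Acta2 to 0.15 for Tpm2, and the widest intervals are those of the third Cald1 probe set.

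Transgelin, calponin and caldesmon also bind along the filament. Tagln read 6.31, 6.35 and 6.97 in SV5-NN4, 8.03, 6.83 and 7.16 in SV5 and 7.49, 6.79 and 7.51 in NIH 3T3. Its difference between SV5-NN4 and SV5 was -0.79 (SE 0.27, 95% interval -1.43 to -0.16, limma adjusted p = 0.27), and the pairs gave -1.72, -0.48 and -0.19. The first pair had the largest share, and without SV5-NN4 replicate 1 or SV5 replicate 1 the difference was -0.45. SV5-NN4 differed from NIH 3T3 by -0.72 (limma adjusted p = 0.24), or -0.37 without SV5-NN4 replicate 1, and SV5 from NIH 3T3 by 0.08.

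Cald1, which encodes caldesmon, an inhibitor of the actin-myosin interaction, read 11.77, 11.77 and 11.91 in SV5-NN4, 12.15, 12.05 and 12.20 in SV5 and 12.55, 12.13 and 12.43 in NIH 3T3. The spread within a line was small and the SV5-NN4 arrays were below all others. SV5-NN4 differed from SV5 by -0.32 (SE 0.13, limma adjusted p = 0.34) and from NIH 3T3 by -0.55 (SE 0.13, limma adjusted p = 0.085), with all 3 pairs on the same side each time. SV5 differed from NIH 3T3 by -0.23 (95% interval -0.53 to 0.06). The second probe set gave -0.65 and -0.58 for the same comparisons (limma adjusted p = 0.11 for both). The third spread widely within NIH 3T3, from 7.71 on replicate 3 to 11.23 on replicate 1, and gave -0.94 and -1.74 with an SE of 0.72.

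Cnn1, which encodes the smooth muscle calponin, was dim in every line. It read 4.85, 4.74 and 4.29 in SV5-NN4, 5.02, 5.10 and 4.20 in SV5 and 5.09, 5.11 and 4.56 in NIH 3T3. The lines overlapped, replicate 3 was the lowest in each, and 1 SV5 array was inside the floor. The differences were -0.15 for SV5 against NIH 3T3, -0.14 for SV5-NN4 against SV5 and -0.29 for SV5-NN4 against NIH 3T3, with adjusted p of 0.31 to 0.81 in limma. A change of this gene may not be measurable at such a level.

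Among the crosslinkers, Flna read 8.90, 8.21 and 9.87 in SV5-NN4, 9.28, 8.89 and 10.20 in SV5 and 7.78, 7.74 and 9.57 in NIH 3T3. The lines overlapped, replicate 3 was the highest in each, and within pairs SV5 was highest and NIH 3T3 lowest every time. SV5 exceeded NIH 3T3 by 1.09, or 2.13-fold (SE 0.19, 95% interval 0.64 to 1.54, limma adjusted p = 0.12), with pairs of 1.49, 1.15 and 0.63. SV5-NN4 differed from SV5 by -0.46 (SE 0.19, limma adjusted p = 0.37) and from NIH 3T3 by 0.63 (limma adjusted p = 0.16), or 0.40 without NIH 3T3 replicate 1.

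Actn1, which encodes a non-muscle alpha-actinin, was the gene closest to no difference at the brightest probe set. It read 11.59, 10.77 and 10.91 in SV5-NN4, 11.51, 10.60 and 11.16 in SV5 and 11.45, 10.85 and 10.99 in NIH 3T3. The lines overlapped fully, and replicate number held 92.5% of the variance. The differences were -0.01 for SV5 against NIH 3T3 (95% interval -0.32 to 0.31), 0.00 for SV5-NN4 against SV5 (-0.31 to 0.32) and 0.00 for SV5-NN4 against NIH 3T3 (-0.32 to 0.31). Its other 2 probe sets lay at 0.15 and 0.25 for SV5-NN4 against SV5, at 0.16 and 0.38 for SV5 against NIH 3T3 and at 0.31 and 0.63 for SV5-NN4 against NIH 3T3, with intervals that included 0.

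At the focal adhesion, Vcl encodes vinculin, which links talin to actin. It read 10.46, 10.04 and 10.79 in SV5-NN4, 10.88, 10.65 and 11.43 in SV5 and 11.30, 10.20 and 11.28 in NIH 3T3. Each SV5-NN4 array was below its pair in both other lines, while the lines as groups overlapped. The difference from SV5 was -0.56 (SE 0.18, 95% interval -0.97 to -0.14, limma adjusted p = 0.22), with pairs of -0.42, -0.61 and -0.64. SV5-NN4 differed from NIH 3T3 by -0.50 (limma adjusted p = 0.21), or -0.29 without NIH 3T3 replicate 1, and SV5 from NIH 3T3 by 0.06. The second Vcl probe set read 3.79 to 4.27, at the floor.

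**Figure D3:**
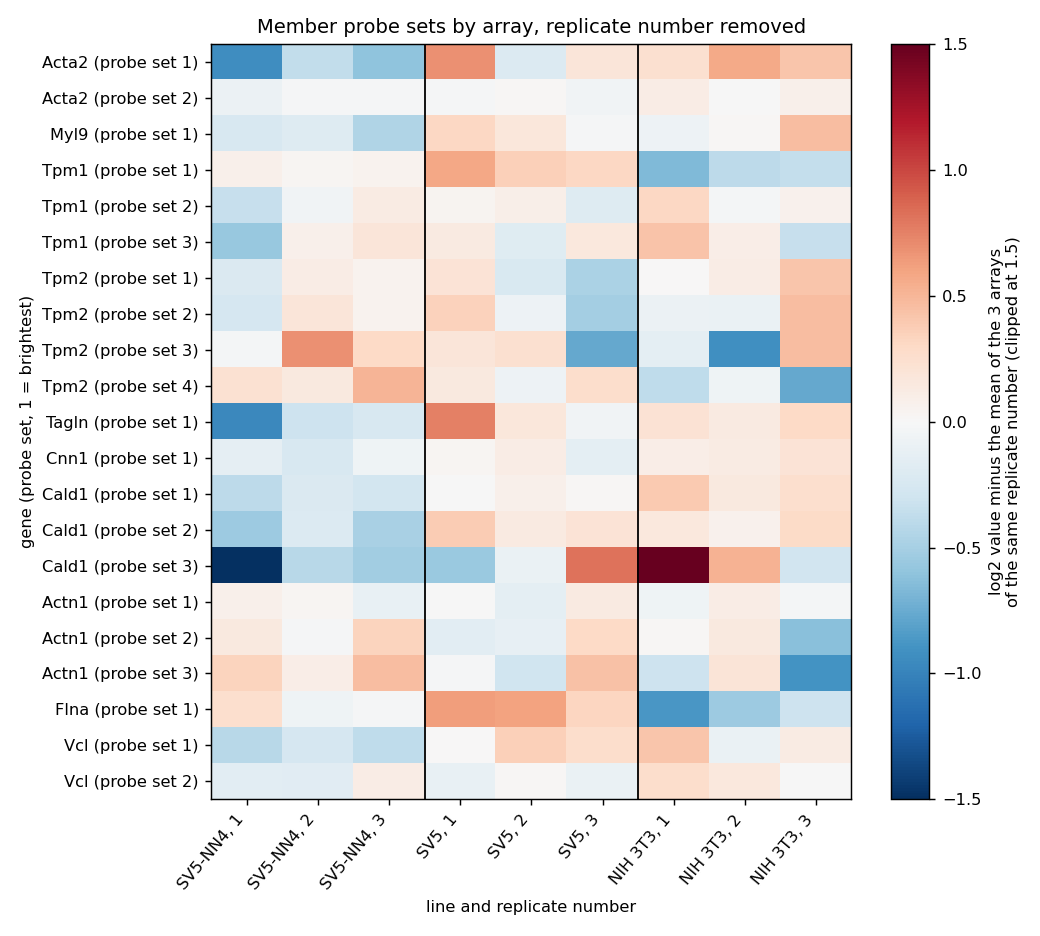
Each of the 21 probe sets on each of the 9 arrays, as the log2 value minus the mean of the 3 arrays with the same replicate number. Red is above and blue below that mean, and colours stop at 1.5. The brightest probe sets of Acta2, Tagln, Cald1 and Vcl are blue on all 3 SV5-NN4 arrays. Those of Tpm1 and Flna are red on all 3 SV5 arrays and blue on all 3 NIH 3T3 arrays. The brightest Actn1 probe set stays near 0, and its others do not on NIH 3T3 replicate 3.

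The 10 genes did not share 1 pattern. After removal of the replicate means, the correlation of a gene with the mean of the other 9 genes over the 9 arrays was 0.86 for Tagln, 0.83 for Myl9 and 0.72 for Acta2. It was 0.51 to 0.52 for Cald1, Vcl and Cnn1, and 0.14 or less for Tpm2, Tpm1, Flna and Actn1, with -0.16 for Actn1. These are descriptions over arrays of 3 lines, which share line and array quality. Line held 79.5% of the variance of Cald1 and 75.2% of that of Acta2 at the brightest probe sets, against 28.7% for Vcl and 28.6% for Flna. Outside the set, the 5 genes whose arrays most resembled the mean of the 10 genes, of 7134 at or above the median probe set level, were Glis1 (r = 0.987), Col16a1 (0.976), Slc38a2 (0.967), Smim19 (0.958) and Glrx (0.955), over the same 9 arrays. Glis1 encodes a zinc finger transcription factor, Col16a1 a collagen chain and Slc38a2 an amino acid transporter. In SV5-NN4 against SV5 they differed by -0.87 to -0.36, and limma called none of them (adjusted p of 0.10 to 0.28).

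The rest of the pathway was described by 3 companion lists. In SV5 against NIH 3T3 limma called 0 of their measured genes, where 0.0484% of all genes were called at their brightest probe set. Of 33 other actins, myosins, tropomyosins and crosslinkers, 17 lay above 0, and Mylk, the kinase that phosphorylates myosin light chains, had the largest difference (1.36, pairs of 1.65, 0.73 and 1.71, limma adjusted p = 0.11), followed by Palld, the crosslinker palladin, at 0.91. Of 24 focal adhesion scaffolds and adaptors, 17 lay above 0 with a median of 0.24, led by Ilk, the integrin-linked pseudokinase, at 0.85 and the zyxin relative Lpp at 0.78. The 26 genes of the SRF and MRTF list had a median of 0.05, with the early growth gene Egr1 at -0.84 and the TGF-beta receptor Tgfbr2 at 0.79. The adjusted p of the genes named here ran from 0.11 to 0.52 in limma.

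Between SV5-NN4 and SV5, 2 companion genes fell, where 0.678% of all genes were called lower. Svil, which encodes supervillin, a membrane-linked actin and myosin II-binding protein, averaged 8.64 ± 0.37 in SV5-NN4 and 10.09 ± 0.47 in SV5 (SD, n = 3 each), a fall of 2.74-fold (difference -1.45, SE 0.17, limma adjusted p = 0.021). Cav1, which encodes caveolin-1, the coat protein of caveolae, averaged 11.18 ± 0.27 in SV5-NN4 and 12.18 ± 0.23 in SV5, a fall of 2.004-fold (difference -1.003, SE 0.13, limma adjusted p = 0.025). The arrays of both genes did not overlap and all 3 pairs were lower. In NIH 3T3 Svil averaged 9.24 ± 0.60 and Cav1 11.42 ± 0.40, below SV5 for both genes, by 0.85 for Svil and 0.77 for Cav1 as SV5 minus NIH 3T3 (limma adjusted p = 0.12 and 0.11). SV5-NN4 minus NIH 3T3 was -0.60 for Svil and -0.23 for Cav1 (limma adjusted p = 0.14 and 0.41). Both calls were lost without the block (limma adjusted p = 0.48 for Svil and 0.50 for Cav1). With single arrays left out, the call of Svil was lost without SV5 replicates 1, 2 or 3 or SV5-NN4 replicates 2 or 3, and that of Cav1 was lost each time an array of either line was removed (highest adjusted p 0.20).

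In that comparison the focal adhesion list had 17 of 24 genes below 0 and a median of -0.27, and the list of other actins, myosins and crosslinkers had 19 of 33 below 0 and a median of -0.12, beside 0.01 over all genes. In the SRF and MRTF list 0 of 26 were called, with a median of -0.06, and 11 lay above 0 and 15 below. Its 2 largest differences were 1.12 for Fosl1, an AP-1 subunit, and 0.95 for Ankrd1, a stretch-responsive nuclear protein gene. Their limma adjusted p was 0.099 and 0.20, and both were opposite in sign to Acta2 and Tagln. Tgfbr2, at -0.90, had the same sign as Acta2 and Tagln (limma adjusted p = 0.13).

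The factor itself and its coactivators were not called either, and these 3 genes were named after their values were seen. Srf averaged 7.83 ± 0.0091 in SV5-NN4, 7.74 ± 0.33 in SV5 and 7.81 ± 0.17 in NIH 3T3 (SD, n = 3 each). Mrtfa averaged 7.57 ± 0.09 in SV5-NN4, 8.26 ± 0.44 in SV5 and 7.54 ± 0.31 in NIH 3T3, a difference of -0.69 between SV5-NN4 and SV5 (limma adjusted p = 0.14) and of 0.72 between SV5 and NIH 3T3 (limma adjusted p = 0.16). Mrtfb had the opposite signs, at 0.17 between SV5-NN4 and SV5 and -0.22 between SV5 and NIH 3T3 (limma adjusted p = 0.76 and 0.51).

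**Figure D4:**
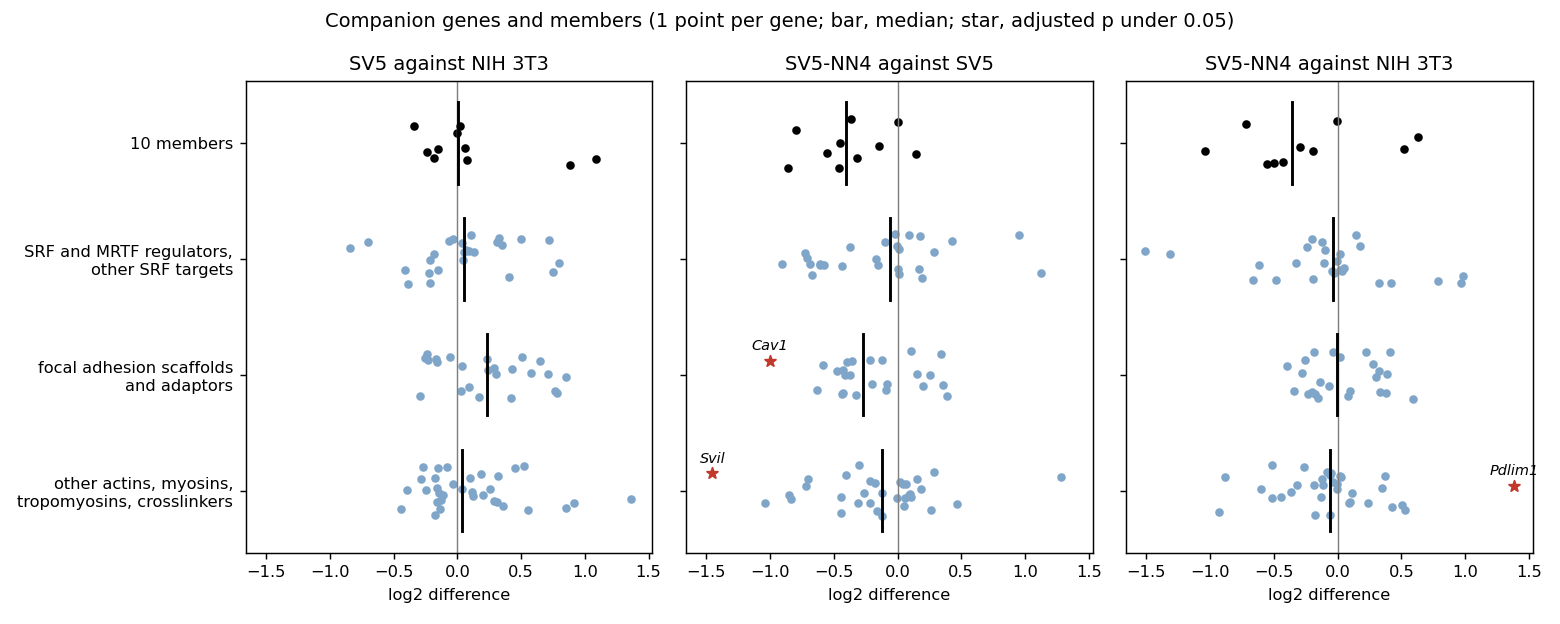
log2 differences of the genes of the 3 companion lists and of the 10 members, 1 point per gene at its brightest probe set, in the 3 comparisons. Vertical bars are medians and red stars mark adjusted p under 0.05 in limma. Svil and Cav1 lie at -1.45 and -1.003 in SV5-NN4 against SV5, and Pdlim1 lies at 1.38 in SV5-NN4 against NIH 3T3.

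Against NIH 3T3, SV5-NN4 had 1 called companion gene, where 1.96% of all genes were called. Pdlim1, which encodes a PDZ and LIM domain adaptor of alpha-actinin, averaged 9.07 ± 0.26 in SV5-NN4 and 7.69 ± 0.56 in NIH 3T3 (SD, n = 3 each), a rise of 2.61-fold (difference 1.38, SE 0.25, limma adjusted p = 0.046). This call held in 4 of 9 other settings (adjusted p up to 0.34 without the block), and, with single arrays left out, was held only without NIH 3T3 replicate 1. In SV5, Pdlim1 averaged 7.79 ± 0.09. SV5-NN4 exceeded SV5 by 1.29, which was not called (limma adjusted p = 0.071). The early growth genes Egr1 and Fos, both SRF targets, lay at -1.51 and -1.31 (limma adjusted p = 0.21 and 0.19). Among the focal adhesion genes Git1, a scaffold of Rac signalling, lay at 0.59 and Lpp at 0.41 (limma adjusted p = 0.33 and 0.26). Medians of the 3 lists ran from -0.06 to -0.01.

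Other measures differed between SV5-NN4 and SV5 as well. Of 14 fibroblast identity genes, 4 fell in SV5-NN4 against SV5 by the same test, where 0.678% of all genes were called lower: the collagen gene Col3a1, the receptor gene Pdgfra, the surface protein gene Thy1 and Dcn, which encodes the proteoglycan decorin. Without the block the call of Thy1 was kept (limma adjusted p = 0.023) and those of Col3a1, Pdgfra and Dcn were lost (0.31, 0.17 and 0.22). Of the 14 genes, 13 lay below 0 with a median of -0.54. Against NIH 3T3, 3 of the 14 were called lower in SV5-NN4, Pdgfra, Thy1 and Dcn, where 0.686% of all genes were called lower. Without the block only the call of Thy1 was kept there (limma adjusted p = 0.0014). In that comparison 12 of the 14 genes lay below 0 with a median of -0.42. Their summed intensity was 27160 to 42510 in SV5-NN4, 47450 to 67390 in SV5 and 31600 to 57440 in NIH 3T3, and 0 of the 14 had a mean within the floor. Control probe sets at the 3′ and 5′ ends of a transcript diverge when RNA is degraded, and their difference was higher in SV5-NN4 than in SV5 in every pair. For Actb it was 4.07, 4.63 and 3.66 in SV5-NN4 and 3.73, 4.33 and 2.42 in SV5 on the log2 scale, and for Gapdh 2.66, 3.52 and 3.05 in SV5-NN4 and 2.45, 3.03 and 2.36 in SV5. In NIH 3T3 it was 4.26, 4.43 and 5.06 for Actb, above SV5 in every pair and above SV5-NN4 in 2 of 3 pairs. For Gapdh it was 2.65, 2.99 and 5.21 in NIH 3T3, with replicate 3 apart and replicate 2 just below that of SV5. The part of these measures in the differences, also in those of SV5 from NIH 3T3, was not tested. No gene of the smooth muscle, skeletal muscle, epithelial, endothelial or leukocyte marker lists was called in any comparison.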

How the data were processed

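Total RNA of 3 mouse cell lines was profiled on Affymetrix arrays, 3 arrays per line. The authors deposited linear intensities, 1 per probe set and array, made with RMA per the submitters' processing notes, with no version or settings given. Between 157 and 851 probe sets had identical values in any 2 arrays. Groups and replicate numbers came from the sample titles, and nothing there says that replicates are separate cultures, so the p-values rest on array-to-array spread that may be only technical.

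Deposited intensities were used as log2(intensity + 1), a scale that understates differences of dim probe sets. All 22690 probe sets were fitted with limma 3.58.1 in R 4.3.3 (lmFit, eBayes), with no filter, a mean per line and the replicate number as a block, and adjusted by Benjamini-Hochberg per comparison. The script was tested on simulated data. With 3 arrays a line, precision is limited by their number. Equal replicate numbers paired the arrays: after subtraction of line means, all 9 equal-numbered pairs from different lines correlated across probe sets, with r from 0.26 to 0.84, against -0.73 to 0.11 for the 18 other pairs. The pairs were set by the replicate numbers in the sample titles. The titles do not say what equal-numbered arrays share, and only these correlations show that they resemble each other.

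Of the probe sets, 20393 had exactly 1 symbol in the platform annotation, 691 several and 1606 none; 20364 of those with 1 were found in RefSeq's gene table (GRCm38.p6). The 10 genes and all lists were chosen with earlier results of these data known. Named genes were all 10 members, up to 3 called rises and 3 called falls per companion list, or its 2 largest differences where none was called, and the 5 genes most like the mean of the members. A further companion list is not reported here. Alternatives changed the block, the arrays fitted, the pseudocount (16 or 0), the normalization, the filter on dim probe sets, the variance model, the probe set of a gene and the arrays left out.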

Additional observations from a re-analysis of the deposited data

How the results depend on the processing

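The count of 0 called member probe sets held in all 3 comparisons without the replicate block and in every other setting run except SV5-NN4 against SV5 on the arrays of those lines alone, where 2 were called (1504 of all probe sets, against 196 with all 9 arrays). Leaving out single arrays gave 0 each time. Over all probe sets the calls without the replicate block were 1 for SV5 against NIH 3T3 (14 with it), 19 for SV5-NN4 against SV5 (196 with it) and 18 for SV5-NN4 against NIH 3T3 (375 with it). Of 188 differences per comparison recomputed for the 10 genes, 173 kept their sign for SV5 against NIH 3T3, 184 for SV5-NN4 against SV5 and 183 for SV5-NN4 against NIH 3T3, and the exceptions were differences that were not called. With the probe sets of each gene averaged, SV5-NN4 against NIH 3T3 gave 0.31 for Actn1, 0.23 for Tpm2 and 0.05 for Tpm1, and SV5 against NIH 3T3 gave 0.24 for Tpm1. The median over the members for SV5-NN4 against NIH 3T3 was -0.41 to -0.21 with single arrays left out, lowest in size without NIH 3T3 replicate 3. The 2 companion genes called in SV5-NN4 against SV5 became 0 without the replicate block, 10 on the 6 arrays alone, and 0 to 6 with single arrays left out. The 1 called against NIH 3T3 became 0 without the replicate block, with a pseudocount of 16, with arrays centred on their medians, with quantile normalization and on the 6 arrays alone, and 0 to 3 with single arrays left out. Of the single arrays, leaving out NIH 3T3 replicate 1 gave the highest companion counts. The cause of these shifts was not tested. Myl9, Cnn1 and the dim probe sets of Acta2 and Vcl lie near the floor, which limits what they can show.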
